A study of Mus musculus with 12 samples.

Results

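Chromatin remodelling, bromodomain and acetylation genes were followed through the m6A peak lists of wild-type and Mettl3-knockout BV2 cells. Members were chosen by gene symbol alone: the Smarca to Smarce, Arid, Chd, Brd, Brpf, Baz, Kat, Hdac and Ino80 families together with Ep300, Ep400 and Crebbp. The rule took 70 genes of the 14078 that carried a peak in either list, with 358 of 36682 peaks in the wild-type (WT) list and 411 of 41153 in the knockout (KO) list. A further 7 RefSeq symbols match the same rule and are not analysed here. BV2 is an immortalised mouse microglial line, and all cells of both genotypes received lipopolysaccharide (LPS), a bacterial cell wall component. The series holds 12 libraries in 4 groups of 3: the RNA fragments bound by an m6A antibody (IP) and the input they came from, for WT cells with LPS and for Mettl3 KO cells with LPS. The dose and duration of LPS, and whether the KO line is a single clone, could not be read from the labels. The extraction protocol names neuroblastoma cells as the RNA source, whereas the sample labels give BV2 microglial cells.

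Chromatin remodellers are ATP-driven machines that slide, evict or exchange nucleosomes. Acetyltransferases place acetyl groups on histone tails, deacetylases remove them, and bromodomains bind the acetylated lysines. In macrophages and microglia these enzymes open and close the enhancers and promoters of inflammatory genes after a stimulus such as LPS. Many of their messenger RNAs are long. METTL3, the catalytic subunit of the m6A writer complex, methylates adenosines in long exons and near stop codons. The pull-down antibody also binds m6Am, a related mark beside the cap that another enzyme lays down, and the lists do not separate both marks.

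Enrichment is given throughout as a log2 ratio, IP over input, which the authors deposited for every peak, and a gene takes the value of its strongest peak per list. There was 1 list per genotype and no value per library, so no replicate spread could be measured and no test was made. Differences are KO minus WT, and they describe these lists. Input expression was not analysed, so a change in m6A cannot be told apart from a change in RNA amount or IP efficiency, nor fewer cells from less RNA per cell. Depth is unknown. The peaks on Mettl3 itself do not check the labels: its strongest peak stood at 1.57 in WT and 2.07 in KO. Of 15 microglia and macrophage markers, 12 had a peak in each list, and the 3 without one were C1qa, P2ry12 and Sall1. Of 8 neuronal and neuroblastoma markers only Tubb3 had a peak, as did 0 of 5 astrocyte markers and 1 of 5 oligodendrocyte markers, Mbp. A peak is no expression level.

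Several members carried a peak over a RefSeq transcript start, where the RNA sequence can be shown. The 30-base windows below come from RefSeq starts of the GRCm38.p6 assembly, read 5' to 3' on the gene's strand. They are 5 of the 7 windows where a peak of both lists covers the start and a core of the m6A motif lies within the first 50 transcribed bases. The starts of Ino80e, Smarca5 and Hdac8 lie 5, 38 and 201 bases into the annotated gene, while those of Ep300 and Brd2 are inner starts, 863 and 2734 bases in. Capitals mark that core, which is GGAC or AGAC, or else GAAC or AAAC, on the transcribed strand only. The windows lie at chr15:81586214-81586243 on the plus strand for Ep300 and at chr7:126862330-126862359 on the minus strand for Ino80e. Those of Hdac8 and Smarca5 are at chrX:102505129-102505158 and chr8:80739416-80739445, both on the minus strand. That of Brd2 is at chr17:34119855-34119884 on the minus strand.
Ep300: gaaggaggaGGACagcgccgaggaggaaga
Ino80e: ttcgtgaggaatgGGACcgttgagcctccg
Hdac8: ctggggctGAACagaggagcagGAACtgga
Smarca5: gggaggcctctgaGAACcttccgttttcct
Brd2: gcctcgcagccaaGAACctttcgcccgccc
Such a core is common: 50.8% of all 32851 RefSeq starts held one in their first 50 bases, against 27 of 67 starts (40.3%) of 51 member genes. Of the 12 member starts under a peak in both lists, 7 held one. The covering peaks stood at a log2 of 3.08 (WT) and 2.19 (KO) on Ep300 and at 1.16 and 0.71 on Hdac8. The start under the strongest Chd4 peak, the highest member value in the KO list, held none of the 4 cores in its first 50 bases. A match is a description of the letters and not a mapped methylation site.

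All 70 members carried a WT peak and 68 a KO peak. The members with a WT peak only were Ino80b and the antisense transcript Ino80dos, against 7.44% of all genes with a peak in WT only, and 0 members had a KO peak only, against 5.03% of all genes. Of the 68 members in both lists, 54 (79.4%) were lower in KO and 14 higher, beside 73.4% lower over 12323 genes. The median difference was -0.37 (95% interval -0.53 to -0.20, interquartile range -0.66 to -0.04), beside -0.25 over all genes. The interval is taken over the 68 genes, with 1 list per genotype, and holds no spread between libraries. With each difference centred on that median of all genes, 38 of 68 members lay below it, and the members' own median was -0.12. By percentile rank within each list, 33 of 68 were lower in KO, beside 48.0% of all genes. A member with a difference between -0.25 and 0 is thus lower in KO by less than the middle gene. Just 3 members were lower by 1 or more, Smarca5-ps, Arid1b and Chd8, against 9.54% of all genes, and 0 were higher by 1 or more, against 0.714%. Their WT values were moderately high, with a median of 1.60 beside 1.36 for all genes, and 22 members (31.4%) reached 4-fold enrichment in WT, near the 28.0% of all genes. In the KO list 12 members (17.6%) did, beside 11.4%. The strongest peaks of the 2 lists overlapped in 51 of the 68 members, and 41 of these were lower in KO. In the other 17, of which 13 were lower, the paired values given below come from different places. Among these were Arid3a, Arid3b, Baz1a, Baz1b, Brd8, Brd9, Brpf1, Brpf3, Chd1, Chd5, Chd9, Kat7, Kat8, Smarca4, Smarcad1 and Smarcb1.

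Members carried more peaks than the average gene, 5.11 per gene in WT and 6.04 in KO beside 2.74 and 3.15. They also spanned more genome, with a median gene span of 46820.5 bases beside 18225. More KO than WT peaks were counted on 33 of 68 members, fewer on 17 and the same number on 18. Over all 12323 genes in both lists these counts were 4956, 2618 and 4749, so more KO than fewer was also the rule there.

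**Figure D1:**
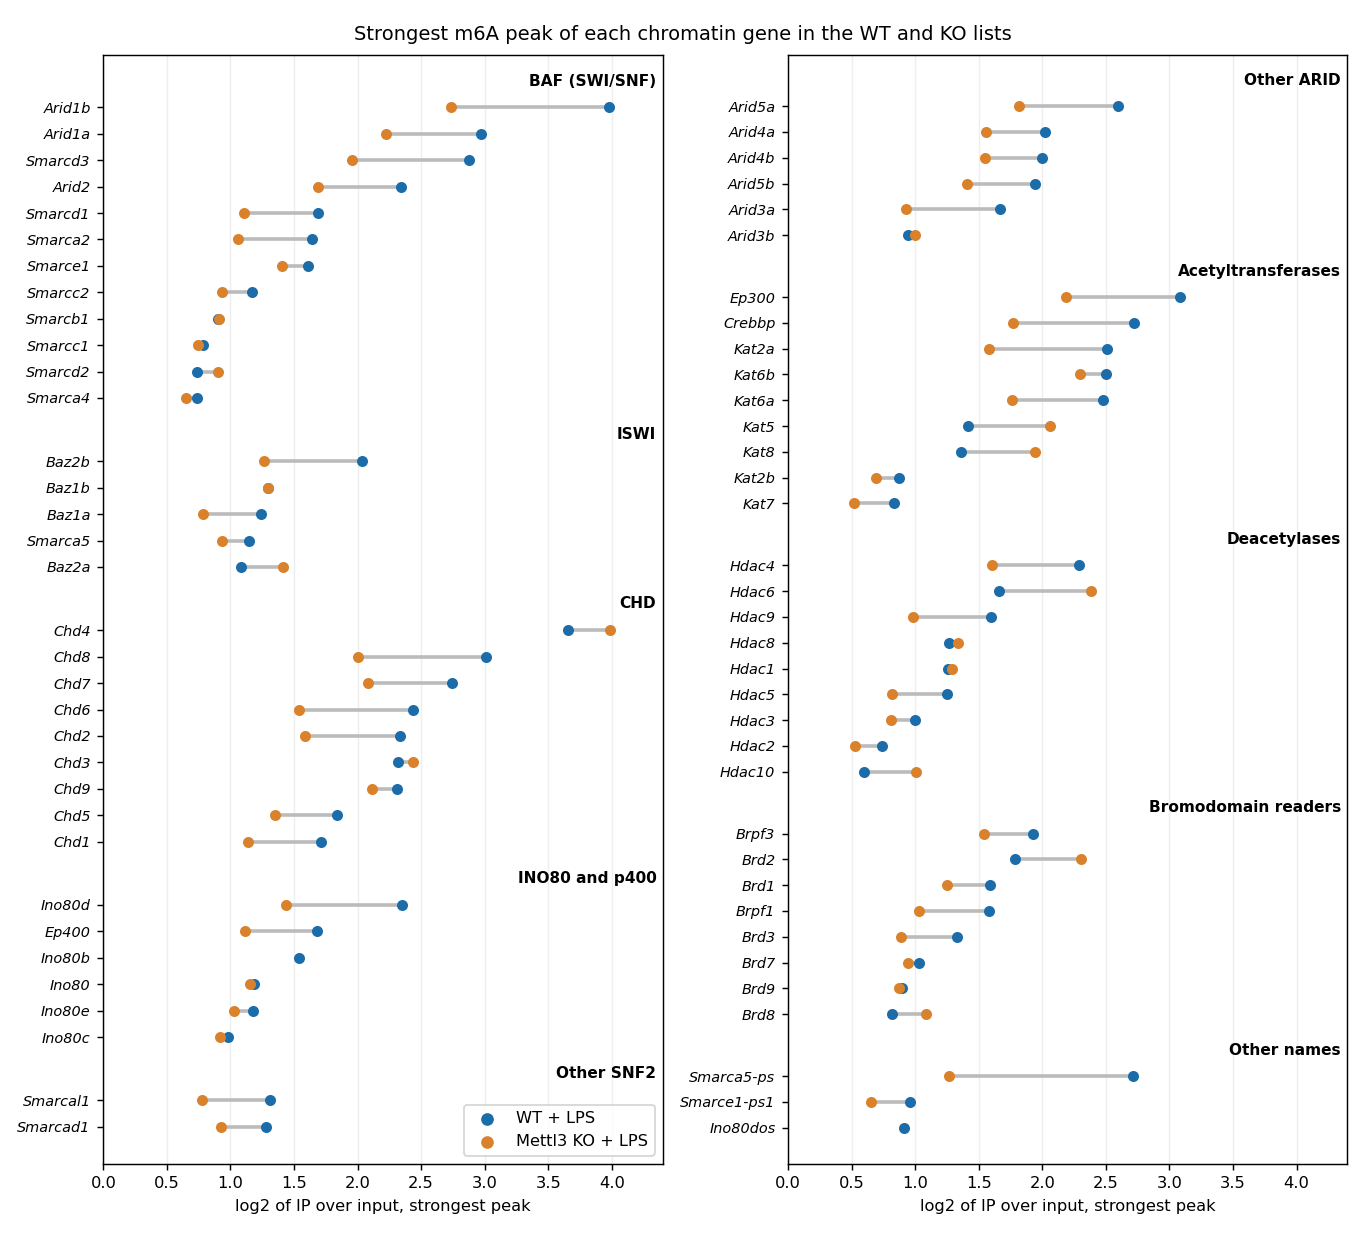
The x axis gives the log2 enrichment (IP over input, the authors' values) of the strongest peak of 69 of the 70 members, grouped by role, with blue points for WT and orange points for KO cells, both with LPS, and a grey line joining them. The orange point lies to the left on 53 of 67 joined genes, and Ino80b and Ino80dos have a blue point alone.

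The BAF complexes, the mammalian SWI/SNF remodellers, were lower in KO for 10 of 12 genes, with a median difference of -0.41 that became -0.16 after centring. Among its ARID subunits, which bind DNA, Arid1b had the strongest WT peak of all members, at 3.97 against 2.74 in KO, a difference of -1.24. Arid1a, its paralogue in the same complex position, stood at 2.97 and 2.22. Arid2, the ARID subunit of the PBAF form, stood at 2.35 and 1.69. All 3 were lower in KO, and the strongest had the largest step.

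Arid1b carried its marks at both ends of a gene of 353325 bases. The 3' UTR peak lay at chr17:5341457-5344531 on the plus strand in WT and at chr17:5341432-5343731 in KO. Near the 5' end, WT had 3 separate coding peaks, at 3.10, 2.21 and 1.80, where KO had a single peak at 1.45. Both ends thus had lower KO values.

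Among the other BAF subunits, Smarcd3, which bridges the complex to transcription factors, stood at 2.87 and 1.96. Its WT list held further coding and intronic peaks at 2.13 and 2.01 that no KO peak overlapped. Its paralogues differed from it: Smarcd1 stood at 1.69 and 1.11, and Smarcd2 was slightly higher in KO, at 0.74 and 0.90. The ATPases were unlike each other as well. Smarca2 (BRM) had 10 WT and 9 KO peaks, mostly in coding exons, and stood at 1.64 and 1.06, whereas Smarca4 (BRG1) stood at 0.74 and 0.65. The core subunits Smarcb1 (0.90 and 0.91), Smarcc1 (0.78 and 0.74) and Smarcc2 (1.17 and 0.93) were all weakly enriched in both lists. Smarce1, a DNA-bending subunit, stood at 1.61 and 1.41. Taking the mean over peaks turned the order of Smarcb1, Smarcd2 and Smarce1.

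The ISWI group, which spaces nucleosomes, was lower in KO for 4 of 5 genes with a median of -0.22, which turned to 0.03 after centring. Baz2b was the strongest, at 2.04 and 1.27, through a coding peak of 20042 bases of genome in WT. Its paralogue Baz2a, a subunit of the complex that silences ribosomal DNA, was higher in KO on intronic peaks, at 1.08 and 1.41, but lower with the mean over its peaks (-0.05). Baz1a, the ACF subunit, stood at 1.24 on a 3' UTR peak in WT and at 0.78 on a 5' UTR peak in KO. This order turned when only peaks with an adjusted p of at most 0.001 were kept. Its relative Baz1b stood at 1.30 and 1.29 on peaks at different places, and the KO peak at the place of the WT one stood at 0.78. The ATPase Smarca5 (SNF2H) stood at 1.15 and 0.93. Apart from Baz2b no ISWI gene reached 4-fold in either list.

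The CHD helicases were the most marked family, with 81 WT and 91 KO peaks on 9 genes and 7 genes at 4-fold or more in WT. In KO, 7 of 9 were lower, with a median of -0.58 (-0.33 after centring, and 0.09 with peaks of at most 1000 bases only). Chd8, a remodeller that binds beta-catenin, stood at 3.01 and 2.00 on a 3' UTR peak at chr14:52198151-52199963 on the minus strand. A first coding peak of Chd8 stood at 2.22 and 1.30. Chd7, the gene mutated in CHARGE syndrome, stood at 2.74 and 2.08. Chd6 stood at 2.43 and 1.54, and Chd9 at 2.31 and 2.11. The strongest Chd9 peaks lay at different places, and at the place of the WT peak KO stood at 1.42. The 4 genes of this subfamily were thus all lower in KO.

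Chd1 and Chd2, which act at transcribed genes, stood at 1.71 and 1.14 and at 2.34 and 1.59. Of the NuRD ATPases, Chd3 and Chd4 were higher in KO and Chd5 lower. Chd4 was higher in KO, at 3.99 against 3.65 in WT, on a 5' UTR peak with the same coordinates in both lists, chr6:125096056-125096688 on the plus strand. Elsewhere on Chd4 every peak was under 1, from 0.51 to 0.82 in WT and from 0.36 to 0.70 in KO. Chd3 was also higher in KO, at 2.32 and 2.44, on a peak that began at the gene's start. Chd5, the third NuRD ATPase, stood at 1.84 and 1.35. The order of Chd3, Chd4 and Chd5 turned when peaks were averaged, which weighs the many weak body peaks as much as the strong one.

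INO80 and p400 members exchange or move nucleosomes that hold histone variants. All 5 in both lists had a lower KO value, with a median of -0.15 that turned to 0.09 after centring. Ino80d, a regulatory subunit, stood at 2.35 and 1.43. Ep400, the p400 ATPase, stood at 1.68 and 1.11. The differences of the others were small: the ATPase Ino80 stood at 1.19 and 1.15, Ino80e at 1.18 and 1.03, and Ino80c at 0.98 and 0.92. Ino80b had a single WT peak, at 1.54, over 344 bases at its gene start (chr6:83125088-83125431, minus strand), and none in KO. Smarcal1, a helicase that anneals stalled replication forks, stood at 1.31 and 0.77, and Smarcad1, which keeps heterochromatin through replication, at 1.28 and 0.93.

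The ARID genes outside BAF were lower in KO for 5 of 6, with a median of -0.50 (-0.25 after centring, and 0.07 with short peaks). Arid5a, an RNA-binding protein known to stabilise Il6 mRNA in LPS-treated macrophages, led the group at 2.60 and 1.81 on a 3' UTR peak. Arid5b, a partner of the demethylase Phf2, stood at 1.94 and 1.41. Arid4a and Arid4b, which bind the retinoblastoma protein, stood at 2.02 and 1.56 and at 2.00 and 1.55. These paralogues had nearly the same values in both lists. Arid3a stood at 1.67 on a 3' UTR peak in WT and at 0.93 on a 5' UTR peak in KO. Its relative Arid3b was marginally higher in KO, at 0.94 on a 5' UTR peak in WT and 1.001 on a 3' UTR peak in KO.

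Among acetyltransferases 7 of 9 had a lower KO value, with a median of -0.31 (-0.06 after centring, and 0.10 with short peaks). The paralogous coactivators that acetylate enhancers had the highest WT values, while Kat6b led in KO. Ep300 stood at 3.08 and 2.19 on a peak that began at the gene's start, chr15:81585351-81586875 in WT, which holds the window printed above. Its 3' UTR peak stood at 2.80 and 1.72. Crebbp showed the same layout, with a 3' UTR peak at 2.72 and 1.77 and a 5' peak at 2.29 and 1.16. In both genes the ends were lower in KO, by differences from -1.13 to -0.90.

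The MYST enzymes followed with wider differences among themselves. Kat6a (MOZ) stood at 2.48 and 1.76, and Kat6b (MORF) at 2.50 and 2.30. For Kat6b the 3' UTR peak differed by -0.20 and the 5' UTR peak by -0.94, so its strongest peak hides the larger change at the other end. Kat5 (TIP60) was higher in KO, at 1.42 and 2.06, on overlapping peaks near the 5' end, though the mean over its peaks was lower (-0.05). Kat8 (MOF) was also higher, at 1.36 and 1.94, but its strongest peaks lay at different places, at the gene's start in WT and in an intron in KO. Kat7 (HBO1) was weak, at 0.83 and 0.52. Of the SAGA enzymes, Kat2a (GCN5) stood at 2.51 and 1.58 and Kat2b (PCAF) at 0.87 and 0.69.

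The deacetylases were the least marked of the larger groups, with 21 WT and 34 KO peaks on 9 genes. A lower KO value was seen for 5 of 9, with a median of -0.19 that turned to 0.06 after centring. The class IIa enzymes, which shuttle between nucleus and cytoplasm, were all lower: Hdac4 at 2.29 and 1.61, Hdac9 at 1.60 and 0.98, and Hdac5 at 1.25 and 0.82. Both class IIb enzymes were higher in KO. Hdac6, the cytoplasmic tubulin deacetylase, had the largest positive difference of all members, 0.72, from 1.66 to 2.38 on overlapping 5' UTR peaks at chrX:7947348-7947772 in WT and chrX:7947398-7947622 in KO. With the mean over its peaks this order turned, since the KO list adds weaker peaks at 0.64 and 0.56. Hdac10, a polyamine deacetylase, stood at 0.60 and 1.01. The class I enzymes had differences from -0.21 to 0.07: Hdac8 stood at 1.27 and 1.34, Hdac1 at 1.26 and 1.29, Hdac3 at 0.998 and 0.81, and Hdac2 at 0.74 and 0.53. Hdac1, Hdac2 and Hdac3 are the catalytic subunits of nuclear corepressor complexes. The order of Hdac1 and Hdac8 turned with the mean over peaks.

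Bromodomain readers were lower in KO for 7 of 9, with a median of -0.34 (-0.09 after centring), and 0 reached 4-fold in WT. Brd2 and Brd3, paralogues that bind acetylated histones, went opposite ways. Brd3 stood at 1.33 and 0.89. Brd2 was higher in KO, at 1.78 and 2.31, and here the place mattered. The KO peak of 2.31 shared only its edge with the strongest WT peak, while a KO peak of 1.68 covered most of that WT peak. The mean over its peaks turned the order (-0.03).

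Brpf3, Brpf1 and Brd1 are scaffolds of the MYST acetyltransferases and stood at 1.92 and 1.54, 1.58 and 1.03, and 1.59 and 1.25. All 3 were lower in KO, though the strongest peaks of Brpf3 and Brpf1 lay at different places in the 2 lists. Of the bromodomain subunits of remodellers, Brd7 (PBAF) stood at 1.03 and 0.94 and Brd9 (non-canonical BAF) at 0.90 and 0.87. Brd8, a TIP60 complex subunit, was higher in KO, at 0.82 and 1.09, but lower when the KO peak at the place of the strongest WT peak was taken.

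The rule also took 3 noncoding names. Smarca5-ps, a pseudogene of Smarca5, had the largest difference of all members, -1.44, from 2.71 to 1.27, and a second WT peak at 2.25 had no KO partner. Smarce1-ps1 stood at 0.96 and 0.65. Reads from a pseudogene and its parent gene can be interchanged by an aligner, so these values are uncertain; the parent Smarca5 differed by -0.22. Ino80dos, antisense to Ino80d, had a WT peak at 0.91. Without these 3 names, 52 of 66 members were lower in KO.

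The size of the difference followed the WT level, in members as in all genes. Of 22 members at a WT log2 of 2 or more, 20 had a lower KO value, with a median of -0.76, beside 93.8% and -0.83 over 3351 genes. The 2 exceptions were Chd4 and Chd3. Between 1 and 2, 25 of 32 members (78.1%) were lower with a median of -0.37, beside 82.2% and -0.30 over 5211 genes. Below 1, 9 of 14 (64.3%) were lower with a median of -0.05, beside 43.2% and 0.03 over 3761 genes. The WT value sorts these strata and is also part of the difference, so they are a description. Peak length moved with the result too, and its part was not tested: the median was -0.53 where the strongest WT peak spanned over 1000 bases (45 members) and -0.09 where it was shorter (23 members), beside -0.49 and -0.08 over all genes. With short peaks alone, 36 of 64 members were lower in KO (56.3%, beside 58.2%). The order then turned for 16 members, among them Arid3a, Arid4b, Arid5b, Baz2b, Brd9, Chd1, Chd2, Chd9, Ep400, Hdac8, Kat2a, Kat6a, Kat6b, Smarca2 and Smarcad1. The length limit was applied to each list separately, so the values compared can come from different places. On Kat2a a KO 3' UTR peak (1.58) then stood against a WT coding peak (0.70), while its overlapping 3' UTR peaks differed by -0.92. With short peaks the difference was -1.66 on Arid1b, -0.48 on Chd8, -0.31 on Crebbp and -0.0024 on Ep300.

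**Figure D2:**
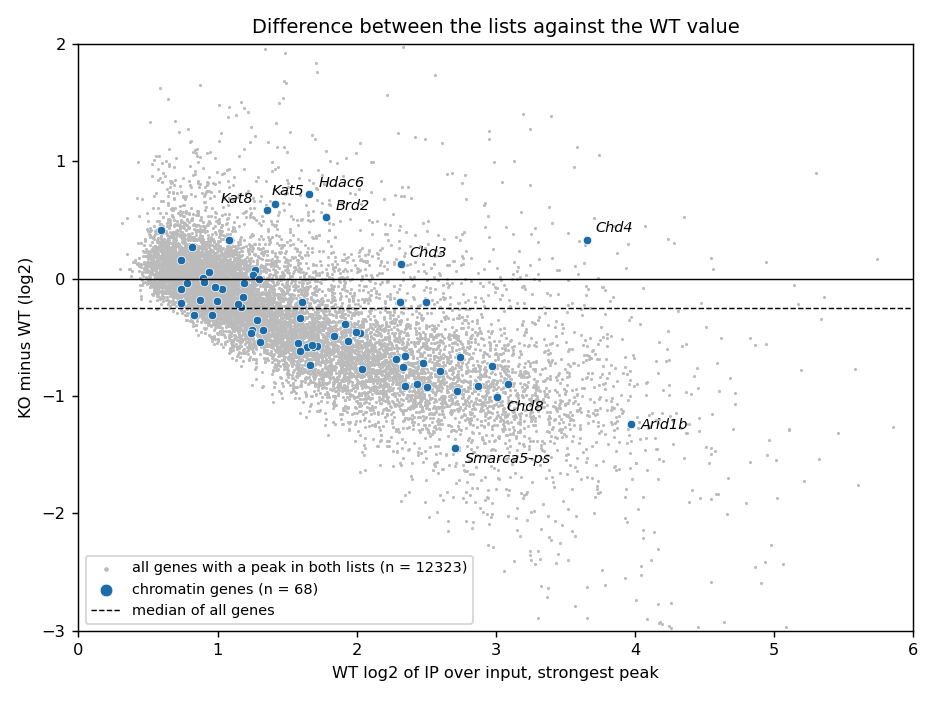
The x axis gives the WT log2 of the strongest peak and the y axis the KO minus WT difference in log2, for all 12323 genes in both lists (grey) and the 68 members (blue); 42 genes lie outside the axes. The members spread through the grey cloud, which slopes downward, with Chd4 and Hdac6 toward its upper edge and Smarca5-ps lowest among the members.

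In place along the transcript the members differed from the average peak. Of WT member peaks, 43.0% (95% Wilson interval 38.0 to 48.2) were annotated as coding exon, beside 21.1% of all WT peaks, and in KO 45.7% (41.0 to 50.6) beside 25.1%. Peaks in 3' UTRs made up 37.2% in WT and 37.2% in KO, beside 53.0% and 51.4%. Shares in 5' UTRs were near those of all peaks, 13.4% and 11.7% beside 11.9% and 11.9%. The intervals cover counting of peaks only, and peaks of a gene share their transcript. Exon number and length were not matched. These shares count strong and weak peaks alike. The strongest WT peak lay in a 3' UTR for 37 of 68 members in both lists, and in a coding exon for 12. Over all 12323 genes in both lists these counts were 7880 and 948. For the strongest KO peak they were 31 and 15 of the members, beside 7949 and 1026 genes. Member genes are longer, as given above, and 48.0% of WT and 48.9% of KO member peaks spanned over 1000 bases of genome, beside 40.1% and 38.9%.

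**Figure D3:**
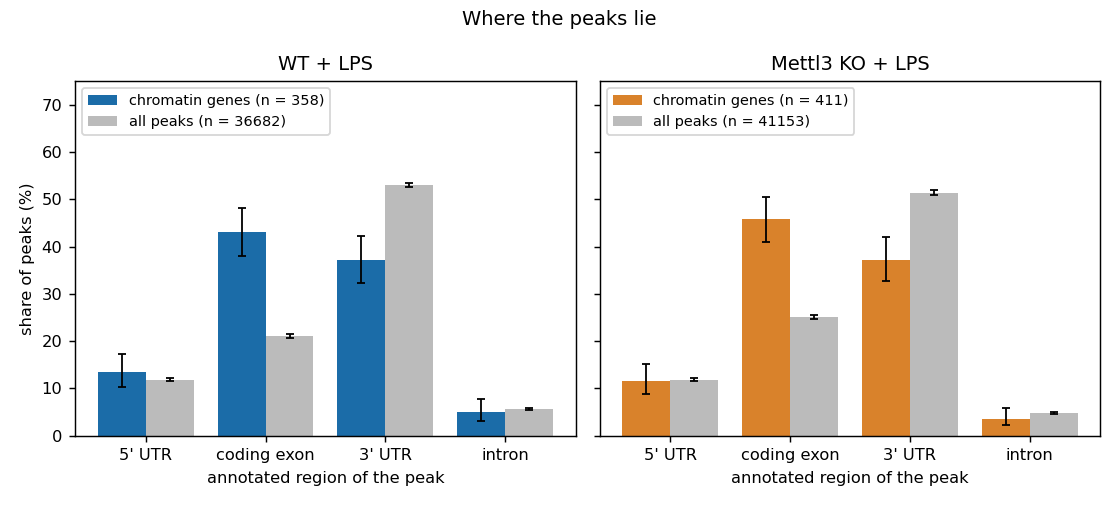
Bars give the share of peaks in percent by annotated region, for member genes (coloured) and all peaks (grey), in the WT list on the left and the KO list on the right; error bars are 95% Wilson intervals over peaks. The coding exon bar of the members stands above their 3' UTR bar in both lists, with intervals that overlap, while 3' UTR peaks lead among all peaks.

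Most member peaks were found in both lists. At least 1 base on the same strand was shared by 295 of 358 WT peaks (82.4%, interval 78.1 to 86.0), beside 77.2% of all WT peaks, and by 304 of 411 KO peaks (74.0%, 69.5 to 78.0), beside 72.9%. With 50% of both peaks shared, the member shares were below those of all peaks: 52.2% beside 53.1% in WT and 45.5% beside 47.3% in KO. The 107 unmatched KO peaks had a median log2 of 0.51, beside 0.68 for the matched ones. The 63 unmatched WT peaks had the same median, 0.78, as the matched ones. Strong WT peaks of 4-fold or more numbered 33, and the 3 unmatched ones lay on Smarca5-ps and Smarcd3. All 12 such KO peaks overlapped a WT peak. Where coordinates were identical in both lists, 10 of 17 member peaks had a lower KO value, with a median of -0.06, beside 61.9% and -0.06 over 2916 such peaks. The strongest of these 17 was that of Chd4.

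The ends of the transcripts were then compared by taking the strongest peak of each region in each list, a comparison chosen after the values were seen. For 3' UTR peaks a lower KO value was found in 49 of 61 members (80.3%), with a median of -0.29, beside 71.4% and -0.19 over 10229 genes. For 5' UTR peaks 19 of 31 (61.3%) were lower with a median of -0.15, beside 73.2% and -0.16 over 2941 genes. For coding peaks 35 of 46 were lower with a median of -0.11, beside 70.6% and -0.10 over 3537 genes. With peaks of at most 1000 bases, the shares lower were 56.5% for 3' UTRs (all genes 56.1%) and 61.5% for 5' UTRs (all genes 70.6%). The members' 5' UTR peaks thus lay on both sides of 0 in either setting.

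Both ends could be compared in 29 members. Both were lower in KO for 15 of them (51.7%, beside 53.7% of 2785 genes), among them Crebbp (5' UTR -1.13, 3' UTR -0.96), Ep300 (-0.90 and -1.08) and Arid1a (-1.002 and -0.75). A higher 5' UTR value with a lower 3' UTR value was seen for 9 (31.0%, beside 18.4%), among them Chd4 (0.33 and -0.20), Brd2 (0.52 and -0.29) and Chd6 (0.14 and -0.89). The reverse was seen for 3 (10.3%, beside 19.6%) and both ends were higher for 2 (6.90%, beside 8.26%). No test was made of these shares. The Brd2 5' value compares peaks that share an edge. That of Chd4 compares peaks with identical coordinates.

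**Figure D4:**
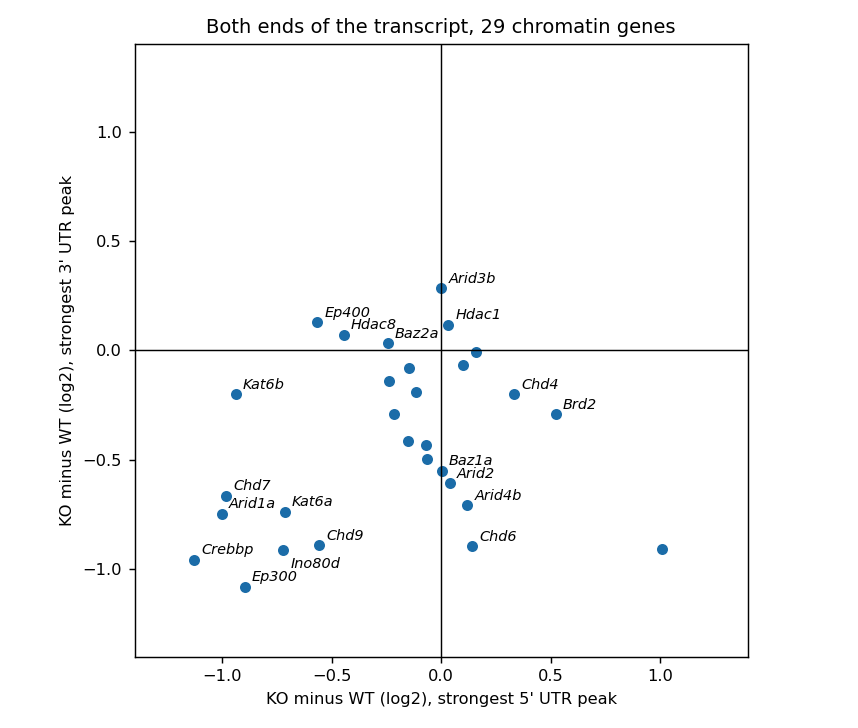
Each point is a member with a 5' UTR and a 3' UTR peak in both lists (29 genes); the x axis gives KO minus WT in log2 for the strongest 5' UTR peak and the y axis the same for the strongest 3' UTR peak. The lower left part of the plot holds 15 genes, and Chd4 and Brd2 lie at the lower right.

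Peaks along 6 of these genes show the layouts in full. Arid1b, Ep300 and Chd8 have strong peaks toward both ends that are lower in KO, with weak peaks between them. On Chd4 the 5' peak is the strong one and the body is flat. On Brd2 a 5' UTR peak is also the strongest, at 1.78 in WT and 2.31 in KO. Its 3' UTR peak stood at 1.17 in WT and 0.87 in KO. Hdac6 has a 5' peak in both lists, and its weaker peaks are in the KO list only.

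**Figure D5:**
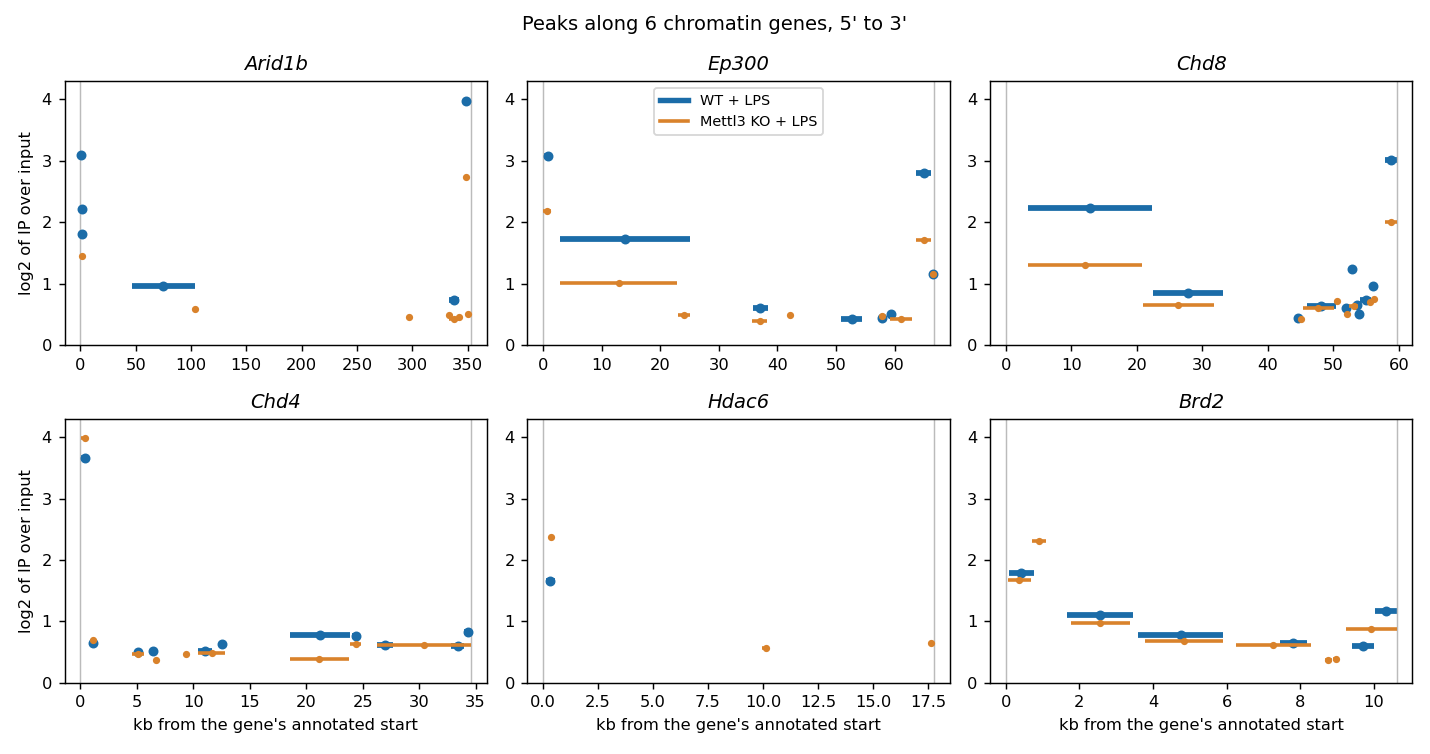
For 6 members, the x axis gives the distance in kb from the gene's annotated start in the direction of transcription and the y axis the log2 enrichment; each bar is a peak drawn over its span, introns included, with a dot at its middle, blue for WT and orange for KO. Grey lines mark the gene's ends, and the Chd4 5' peak is the place where orange lies highest.

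Genes outside the rule, from the same complexes or from related families, had shares near those of all genes. Besides complex subunits, the list held 7 sirtuins, 12 other bromodomain proteins and 5 further genes of the SNF2 family of remodellers. Of 112 listed partner genes, 107 had a peak in each list, and 81 were lower in KO (75.7%, beside 73.4% of all genes) and 26 higher, with a median of -0.33 (all genes -0.25). Lower by 1 or more were 11 (10.3%, beside 9.54% of all genes and 4.41% of members), and 0 were higher by 1 or more. Mier3, a deacetylase complex scaffold, stood at 2.91 and 0.92, on peaks that do not overlap. The corepressor Ncor1 (2.54 and 1.39), which activates Hdac3, was also lower by 1 or more, while Hdac3 itself differed by -0.19. All 7 sirtuins, the NAD-dependent deacetylases, were lower, with a median of -0.57, Sirt7 most at 2.25 and 1.02. No KO peak overlapped the strongest WT peak of Sirt7. The MOZ and HBO1 partners Ing5 (2.48 and 1.23) and Jade1 (3.38 and 2.21) stood among the lowest differences. In NuRD, 7 of 10 partners were lower with a median of -0.02, and Gatad2a (2.12 and 0.98) and Gatad2b (1.03 and 1.49) went opposite ways.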

How the data were processed

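Per the file headers, the authors deposited 1 peak list per genotype with a log2 fold of IP over input, p-values, a region and a gene for each peak. All deposited unadjusted p-values lay below 0.05. The adjusted p was above 0.05 for 106 WT and 122 KO peaks, among them 1 WT member peak. The submitters' processing notes list, without versions or what each did, edgeR, StringTie, HOMER, FastQC, fastp and HISAT2. Build, peak calling settings and caller, and any pooling of replicates, were not given in the sources used here. Starts were read as counted from 0 and printed from 1. All 70 member symbols overlapped their RefSeq position in GRCm38.p6. A gene was 1 gene identifier. Peaks overlapped when they shared 1 base or more and the strand. Intervals are 95% Wilson intervals over peaks, or binomial order statistics over genes for medians. They hold no spread between libraries.

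The members and lists were chosen with earlier results of these data known. The rule for named genes allowed every member, with the 4 strongest WT peaks, the 2 largest differences either way and any peak in 1 list only required per role group. Some genes and sequences that the rules take are counted but not reported here by name. Partner genes were named after their values were seen. Alternatives were an adjusted p of at most 0.001, peaks of at most 1000 bases, 4-fold peaks, the mean over peaks, the KO peak at the place of the strongest WT peak, centring, percentile ranks, 50% reciprocal overlap, strand ignored, and leaving out the noncoding names. Software was matplotlib 3.10.9, SciPy 1.17.1, numpy 2.4.6, pandas 2.3.3 and Python 3.11.15, and the steps were tested on simulated data.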

Additional observations from a re-analysis of the deposited data

How the results depend on the processing

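The share of members lower in KO (79.4%) went to 56.3% with peaks of at most 1000 bases (all genes 58.2%), 91.2% with the mean over peaks (77.2%), 55.9% after centring (50.0%) and 48.5% by percentile rank within each list (48.0%), where the direction turned. The median difference of -0.37 went to -0.052, -0.18 and -0.12 under the first 3 of these, and the members lower by 1 or more went from 3 to 1 after centring. Counts in 1 list only are given for the 70 members, beside those over the 14078 genes. A gene counted as absent from a list where none of its peaks passed the setting. With an adjusted p of at most 0.001, 1 member had a KO peak only, beside 610 genes. With short peaks, 4 had a WT peak only and 1 a KO peak only, beside 1456 and 1739 genes. At 4-fold, 22 had a WT peak and 12 a KO peak, beside 3738 and 1480 genes. Of these members, 13 reached 4-fold in WT only and 3 in KO only, beside 2476 and 218 genes. Reciprocal overlap of 50% left 52.2% of WT and 45.5% of KO member peaks shared, below the 53.1% and 47.3% of all peaks. Short peaks left 54.3% and 48.1%, below 60.2% and 53.0%, whereas the main shares lay above those of all peaks. Both lists were cut to short peaks first, so a short peak whose partner was long counted as unshared. Peaks over 1000 bases were 48.0% (WT) and 48.9% (KO) of member peaks, beside 40.1% and 38.9%. The 3' UTR share was 44.6% (WT) and 46.2% (KO) of short member peaks, beside 58.0% and 58.4% of all short peaks. Among 4-fold peaks it was 48.5% of 33 (WT) and 41.7% of 12 (KO), beside 57.8% and 51.4%. The cause of these moves was not tested. The order of the lists turned for 16 of 64 members with short peaks, where the values compared can come from different places. It turned for 12 of 68 with the mean and for 2 of 64 at the place of the strongest WT peak. With the stricter adjusted p it turned for 1 of 67. Strand and leaving out the noncoding names moved no value beyond its interval. No paired analysis was possible because each list gives 1 set of values per genotype and no value per library. Depth is unknown, and a peak's span includes introns.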

Other observations

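Member peaks present in 1 list only were described by region, after their values were seen. Of the 107 KO peaks that overlapped no WT peak, 57 (53.3%) were annotated as coding exon, 34 as 3' UTR, 8 as 5' UTR and 8 as intron, beside 36.9% coding among all 11152 unmatched KO peaks. The coding ones were weak, with a median log2 of 0.50. Of the 63 unmatched WT member peaks, 24 were coding (38.1%, beside 24.9% of all unmatched WT peaks), 15 in a 3' UTR (23.8%, beside 37.4%), 12 in a 5' UTR (19.0%, beside 11.6%) and 10 intronic (15.9%, beside 12.4%). Baz2a and Hdac5 had the most unmatched KO peaks, 5 each, and Ino80d the most unmatched WT peaks, also 5. The longest member gene was Hdac9, at 869516 bases of genome, and the longest member peak spanned 155475 bases, introns included, on Baz2b.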
